A study of Rattus norvegicus with 4 samples.

Results

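The 9 genes described here form an interferon-gamma response group in rat liver. They are the transcription factors *Irf1*, *Irf8* and *Stat2*, the interferon-inducible GTPases *Irgm*, *Igtp*, *Gbp2*, *Gbp4* and *Gbp5*, and the feedback inhibitor *Socs1*. They were chosen by symbol as 9 of the 16999 genes analysed in the series, with earlier results of these data known, and each was listed in 1 row of every table. RNA was sequenced from the livers of wild-type rats that inhaled 4.5% sevoflurane or 6% desflurane, halogenated agents for general anesthesia. For each agent a control rat was decapitated right after it lost consciousness (sevoflurane 0 h and desflurane 0 h), so the controls had also inhaled the agent for a short time, and an anesthetized rat inhaled it for 6 h (sevoflurane 6 h and desflurane 6 h). There was 1 library in each of these 4 groups, so no value has a replicate error and each difference is one between individual animals. The controls and the anesthetized rats were killed 6 h apart on the clock, so duration of anesthesia and time of day cannot be told apart in any comparison of 6 h with 0 h.

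Interferon-gamma is made mainly by natural killer cells and T cells. It binds a receptor that activates the kinases JAK1 and JAK2, which phosphorylate transcription factors. These factors bind a palindrome known as the gamma-activated site (GAS) in target genes, *Irf1* among them, and the IRF1 protein then binds GAAA repeats in further targets. The immunity-related GTPases (*Irgm*, *Igtp*) and the guanylate-binding proteins (*Gbp2*, *Gbp4*, *Gbp5*) act on the membranes around microbes inside cells. SOCS1 blocks the kinases and closes the loop, and STAT2 serves mainly the neighbouring type I interferon pathway. In liver, hepatocytes, macrophages (Kupffer cells) and endothelial cells all respond to interferon-gamma.

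The sequences in front of these genes were searched for binding motifs of the pathway, and no motif was found in all of them. The promoters of 3 genes that were lower at 6 h with both agents, *Irf1*, *Irgm* and *Igtp*, are printed first, and those of 2 genes called lower with sevoflurane alone, *Gbp2* and *Gbp5*, follow. Each is the 250 bases before the annotated start, 5′ to 3′ on the strand of the gene, from the RefSeq annotation of the rat assembly GRCr8. The *Irf1* stretch is chr10:38417685-38417934 (plus strand), that of *Irgm* is chr10:33742579-33742828 (minus strand) and that of *Igtp* is chr10:42874797-42875046 (plus strand). The *Gbp2* stretch is chr2:234005477-234005726 and that of *Gbp5* is chr2:233910749-233910998 (both plus strand). Capitals mark each match to the GAS motif TTCNNNGAA, which reads the same on both strands, or to the IRF motif GAAANNGAA on either strand.
Irf1: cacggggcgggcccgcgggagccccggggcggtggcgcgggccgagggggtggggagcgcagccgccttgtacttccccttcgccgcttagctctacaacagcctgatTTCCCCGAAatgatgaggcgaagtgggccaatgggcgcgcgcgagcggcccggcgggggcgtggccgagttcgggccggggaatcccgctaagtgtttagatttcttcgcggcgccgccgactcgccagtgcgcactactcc
Irgm: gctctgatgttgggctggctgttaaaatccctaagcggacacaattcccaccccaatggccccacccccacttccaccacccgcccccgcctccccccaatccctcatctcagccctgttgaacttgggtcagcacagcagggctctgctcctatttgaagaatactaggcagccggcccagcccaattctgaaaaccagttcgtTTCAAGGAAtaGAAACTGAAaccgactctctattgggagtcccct
Igtp: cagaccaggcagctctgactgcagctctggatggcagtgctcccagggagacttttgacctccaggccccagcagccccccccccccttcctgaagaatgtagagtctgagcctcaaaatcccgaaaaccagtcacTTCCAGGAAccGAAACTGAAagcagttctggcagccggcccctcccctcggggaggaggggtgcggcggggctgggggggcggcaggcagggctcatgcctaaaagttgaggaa
Gbp2: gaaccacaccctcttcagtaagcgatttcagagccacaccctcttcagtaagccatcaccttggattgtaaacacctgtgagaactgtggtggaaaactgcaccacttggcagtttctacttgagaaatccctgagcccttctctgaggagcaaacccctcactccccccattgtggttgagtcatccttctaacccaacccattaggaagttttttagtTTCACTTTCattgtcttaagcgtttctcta
Gbp5: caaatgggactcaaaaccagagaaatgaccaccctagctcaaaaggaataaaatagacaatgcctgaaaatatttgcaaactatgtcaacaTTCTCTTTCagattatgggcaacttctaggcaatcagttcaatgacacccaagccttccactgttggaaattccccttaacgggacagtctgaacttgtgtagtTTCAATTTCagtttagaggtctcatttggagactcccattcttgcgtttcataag

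In *Irf1* the GAS match TTCCCCGAA began 142 bases before the start and there was no IRF match. In *Irgm* the GAS match TTCAAGGAA at -45 was followed by the IRF match GAAACTGAA at -34. *Igtp* held the same IRF letters at -103, just after the GAS match TTCCAGGAA at -114. In both promoters the gap between the matches was 2 bases. *Gbp2* had 1 IRF match (at -30) and *Gbp5* had 2 (at -159 and -55), all on the other strand, and neither had a GAS match.

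Promoters of all 9 genes were in the reference table, and the search ran over 250 bases before and 50 after the start. A GAS match was found in 5 of the 9 (*Irf1*, *Irgm*, *Igtp*, *Irf8* and *Socs1*), against 8.87% of 33469 rat promoters of the same length. An IRF match was found in 6 (*Irgm*, *Igtp*, *Gbp2*, *Gbp4*, *Gbp5* and *Socs1*), against 9.71% of all promoters. The 3 with both kinds were *Irgm*, *Igtp* and *Socs1*, against 1.11% of all promoters. *Stat2* had neither. In *Socs1* the IRF matches at -107 and -101 overlap, so they are not separate stretches. The arrangement seen in *Irgm* and *Igtp*, a GAS match and then an IRF match after 2 bases, was picked after it had been seen there. It occurred in 9 of the 33469 promoters (0.0269%). Besides *Irgm* and *Igtp* these were the immunity-related GTPase genes *Irgm2* and *Ifgga2l2*, the interferon target *Parp14*, *Stra8* and the non-coding genes LOC120093710, LOC120102478 and LOC134480693, the last of which shares its window with *Igtp*. A match is a run of letters and no evidence of binding in these livers.

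The libraries were of unequal depth. Abundance is given as TPM, a measure of how common a transcript is, scaled for gene length and sequencing depth, so levels of different genes can be set side by side. Named genes are listed here on top of loci assembled from the reads, which already sum to a whole TPM scale. A value is therefore a score and not a share of all transcripts. Aligned bases, derived from coverage, came to 3.50 Gb in the sevoflurane control and to between 5.29 and 5.57 Gb elsewhere, and a TPM of 2 stood for a mean depth per base between 4.72 and 7.28. Between 7881 and 8094 genes exceeded a TPM of 2 in a library. A gene was called lower or higher when its TPM exceeded 2 in the library with the larger value and the ratio exceeded 2. This is a rule of size and no test, and it called 3.71% of 8270 genes lower and 5.04% higher at 6 h with sevoflurane, and 5.55% of 8372 genes lower and 4.10% higher with desflurane. Log2 changes are on log2(TPM + 1), a scale that understates the change of weakly expressed genes, and their median over all genes tested was 0.05 with sevoflurane and -0.10 with desflurane. Coordinates of genes are those of the tables, on the rat build rn6.

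Of the 9 genes, 7 exceeded a TPM of 2 in at least 1 library. At 6 h, 5 of these 7 were called lower and 0 higher with sevoflurane (*Irf1*, *Irgm*, *Igtp*, *Gbp2* and *Gbp5*), beside the 3.71% and 5.04% of all genes above. With desflurane 3 were called lower and 0 higher (*Irf1*, *Irgm* and *Igtp*), beside 5.55% and 4.10%. The median log2 change of the 7 was -1.20 with sevoflurane and -0.16 with desflurane, against the medians over all genes of 0.05 and -0.10. *Gbp4* and *Socs1* stayed under the minimum in every library and could not be called.

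**Figure D1:**
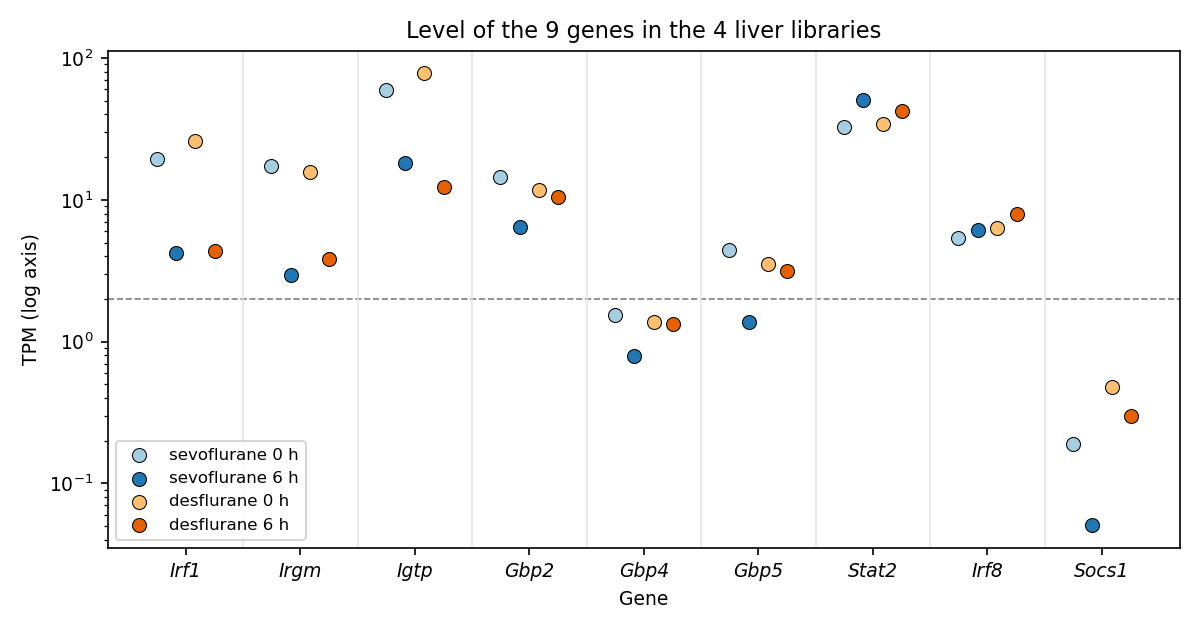
TPM of each of the 9 genes (log axis) in the 4 libraries, 1 point per library, with a dashed line at the TPM minimum of 2. The 6 h points of *Irf1*, *Irgm* and *Igtp* lie well below the 0 h points with both agents, while *Gbp2* and *Gbp5* show a wide gap with sevoflurane and a narrow one with desflurane.

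*Irf1*, a transcription factor induced early in the response, lies on chromosome 10 (39109530 to 39116532, plus strand). Its TPM was 19.4 in the sevoflurane control and 4.24 after 6 h of sevoflurane, 26.0 in the desflurane control and 4.36 after 6 h of desflurane. Both anesthetized rats were low and nearly equal, and both controls were high, without overlap. The level at 6 h was 4.57-fold lower with sevoflurane (log2 change -1.96) and 5.95-fold lower with desflurane (log2 change -2.33). The controls differed from each other by 1.34-fold. Ranked from the most negative change among 9201 genes whose mean TPM was 1 or more, *Irf1* was number 31 with sevoflurane and number 21 with desflurane.

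*Irf8* encodes another interferon regulatory factor, needed for the development of macrophages and dendritic cells, and lies on chromosome 19 (54318463 to 54335105, plus strand). Its TPM was 5.37, 6.17, 6.35 and 7.90 in the order control and then 6 h of sevoflurane, control and then 6 h of desflurane, which is the order of every run of 4 values from here on. The sevoflurane 6 h value lay between those of the controls, and no pair of libraries met the ratio. The ratio of 6 h to 0 h was 1.15 with sevoflurane and 1.24 with desflurane, the size of the gap between the controls (1.18).

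*Irgm*, a regulator of the immunity-related GTPase family with a part in autophagy, lies on chromosome 10 (34213889 to 34221827, minus strand). Its TPM was 17.2 and 2.94 at 0 h and 6 h of sevoflurane, and 15.6 and 3.85 at 0 h and 6 h of desflurane. The anesthetized rats were both low. The level was 5.84-fold lower at 6 h with sevoflurane and 4.06-fold lower with desflurane, and the controls differed by 1.10-fold. *Irgm* was number 19 of the 9201 genes with sevoflurane, the most negative of the 9 genes, and number 47 with desflurane.

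*Igtp*, which encodes an interferon-gamma-induced GTPase of the same family found on internal membranes, lies on chromosome 10 (43631105 to 43639003, plus strand). It had the highest level of the GTPases, with a TPM of 59.9, 18.2, 77.9 and 12.3. Again the 6 h and 0 h libraries did not overlap. The level was 3.29-fold lower at 6 h with sevoflurane and 6.33-fold lower with desflurane, and the controls differed by 1.30-fold. *Igtp* was number 49 of the ranking with sevoflurane and number 12 with desflurane, the most negative of the 9 genes there.

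The 3 genes on this chromosome are not neighbours. *Irf1* is 4515 kb from *Igtp* and 4888 kb from *Irgm*. Loci that were assembled from the reads without a gene name lay closer, and those within 25 kb on the strand of a GTPase and found in all 4 libraries were examined after the values of the named genes had been seen. One that ends 10824 bases before *Igtp* (chromosome 10, 43616648 to 43620280) had a TPM of 12.9, 4.52, 25.8 and 3.37, which is 2.85-fold lower at 6 h with sevoflurane and 7.66-fold lower with desflurane. Its level also differed by 2.0-fold between the controls. One that starts 6563 bases after *Igtp* (43645567 to 43655702) had a TPM of 79.1, 41.6, 83.3 and 16.7. It was 1.90-fold lower with sevoflurane, short of the ratio, and 5.0-fold lower with desflurane. Like *Igtp*, both loci were lower at 6 h in the desflurane than in the sevoflurane library. The locus that lies 10691 bases before *Irgm* (34232519 to 34256112) was weaker, with a TPM of 4.72, 2.17, 4.26 and 2.79. On GRCr8 the protein-coding genes on either side of *Igtp* are *Igtpl1* and *Irgm2*, and the one after *Irgm* is RGD1559575. Whether the loci are these genes was not tested, since the builds differ. Reads of such close relatives could be shared, so the levels of *Irgm* and *Igtp* are uncertain to that extent.

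The guanylate-binding protein genes lie together on chromosome 2, with 52.6 kb between *Gbp5* and *Gbp4* and 13.7 kb between *Gbp4* and *Gbp2*. *Gbp2* (248276795 to 248293784, plus strand) encodes the most abundant of the 3 in these livers, with a TPM of 14.5 and 6.48 at 0 h and 6 h of sevoflurane, and 11.8 and 10.4 at 0 h and 6 h of desflurane. Only the sevoflurane 6 h library stood low. The level was 2.24-fold lower at 6 h with sevoflurane and 1.13-fold lower with desflurane, less than the 1.24-fold difference between the controls. The call with sevoflurane rests on its own control, since against the desflurane control the log2 change was -0.77 in place of -1.05 and fell short of the ratio. In the ranking *Gbp2* was number 185 with sevoflurane and number 3902 with desflurane.

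*Gbp5*, known as a promoter of inflammasome assembly, spans 248178441 to 248196865 on the plus strand. Its TPM was 4.45, 1.37, 3.55 and 3.12. The sevoflurane 6 h library was again the low one. The level was 3.25-fold lower at 6 h with sevoflurane and 1.14-fold lower with desflurane, where the controls differed by 1.25-fold. The named row of *Gbp4* (248249470 to 248263104, plus strand) had a TPM of 1.54, 0.79, 1.37 and 1.32, also lowest at sevoflurane 6 h, at a mean depth of at most 4.81 reads per base. It was under the minimum and no fold is given.

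Between *Gbp5* and *Gbp4* lay a pair of unnamed loci with higher levels than either gene, again examined after the named genes. The one nearer to *Gbp4* (248222990 to 248241272) had a TPM of 23.4, 10.6, 20.4 and 20.0, a difference of 2.20-fold with sevoflurane and 1.02-fold with desflurane. The other (248215404 to 248222470) had 20.6, 11.5, 20.3 and 16.1, or 1.78-fold and 1.26-fold lower. The lowest value of each was at sevoflurane 6 h, as it was for the named rows of the 3 genes. On GRCr8 the protein-coding gene between *Gbp5* and *Gbp4* is *Gbp7*, and whether the loci belong to it was not tested.

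**Figure D2:**
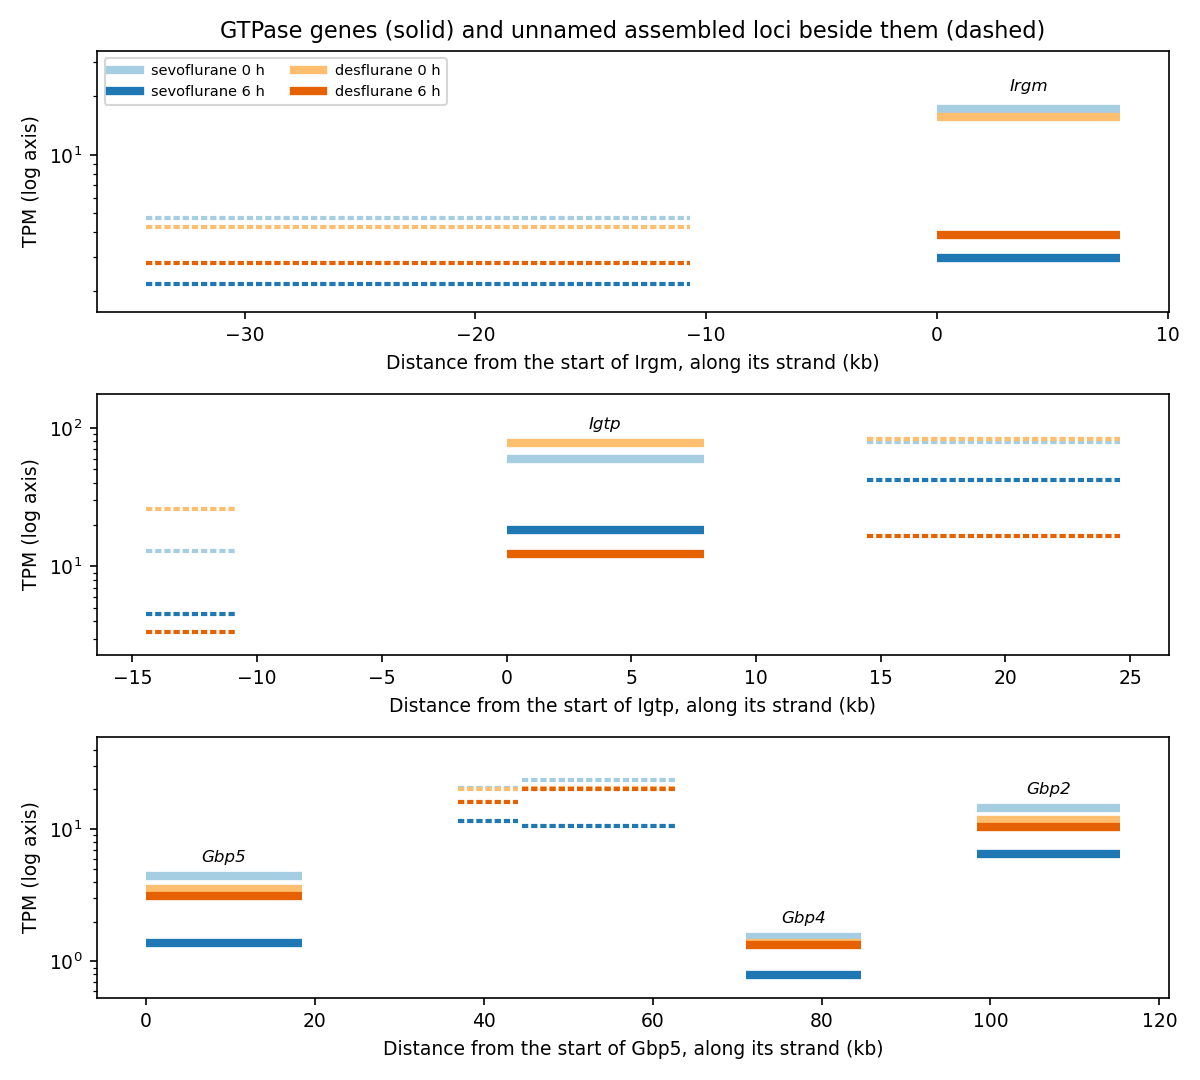
TPM (log axis) of the GTPase genes (solid lines) and of unnamed loci beside them (dashed lines) against distance in kb from the start of *Irgm*, *Igtp* or *Gbp5*, 1 line per library. Around *Igtp* both 6 h lines lie below the 0 h lines, with desflurane 6 h lowest in the loci on either side, whereas along the *Gbp* cluster sevoflurane 6 h is lowest throughout and lines of the other 3 libraries run close together or cover each other.

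*Stat2*, a transcription factor of the type I interferon response that acts together with IRF9, lies on chromosome 7 (2691369 to 2707151, plus strand). Its TPM was 32.4, 50.6, 34.1 and 41.9. Both anesthetized rats were above both controls, by 1.56-fold with sevoflurane and 1.23-fold with desflurane, and neither ratio was called. These values are uncertain. The apolipoprotein gene *Apof* ends 430 bases before *Stat2* on the same strand, its TPM was 332, 475, 336 and 353, and in each library 1 assembled locus covered both genes. How many reads of *Stat2* come from *Apof* was not tested.

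*Socs1*, the inhibitor of the JAK kinases (chromosome 10, 4956793 to 4958471, plus strand), was barely detected, with a TPM of 0.19, 0.05, 0.48 and 0.30 at a mean depth between 0.17 and 1.65 per base. A difference in *Socs1* was not detectable at this depth, and no locus was assembled over it in any library.

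The order of the 9 levels was the same in both controls. *Igtp* came first, then *Stat2*, *Irf1*, *Irgm*, *Gbp2*, *Irf8*, *Gbp5*, *Gbp4* and *Socs1*. It was also the same in both anesthetized rats, where *Stat2* stood first, ahead of *Igtp*, and *Gbp2* and *Irf8* stood above *Irf1* and *Irgm*. In the controls the values of neighbours in this order did not overlap, and the closest pair by ratio was *Irgm* (17.2 and 15.6) and *Gbp2* (14.5 and 11.8). At 6 h *Irf1* (4.24 and 4.36) and *Irgm* (2.94 and 3.85) overlapped neither each other nor *Irf8* (6.17 and 7.90), while *Gbp2* (6.48 and 10.4) overlapped *Irf8* and *Gbp5* (1.37 and 3.12) overlapped *Irgm*.

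The agents were also set beside each other at the same time point. Between the controls 0 of the 7 genes were called in either direction, where 2.76% of 8263 genes were. Between the anesthetized rats 1 of 7 was called, where 3.99% of 8229 genes were. This was *Gbp5*, which was 2.28-fold higher at 6 h of desflurane than at 6 h of sevoflurane. The ratio of desflurane 6 h to sevoflurane 6 h was 1.03 for *Irf1*, 1.31 for *Irgm* and 1.61 for *Gbp2*, and the level of *Igtp* was 1.48-fold lower with desflurane. These are differences between 2 animals and were not tested.

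**Figure D3:**
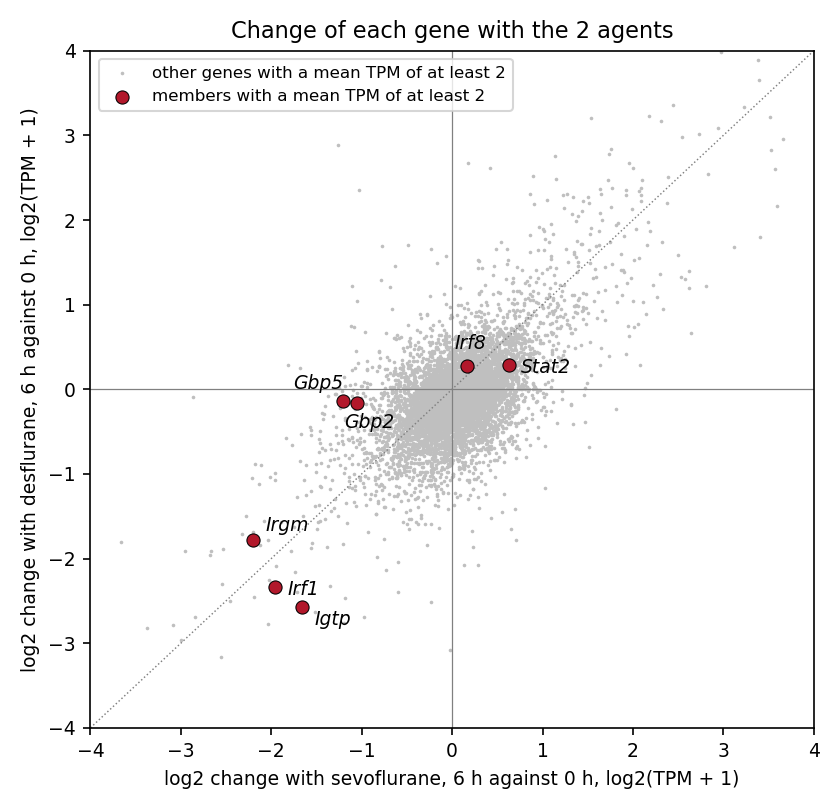
Log2 change from 0 h to 6 h with sevoflurane (horizontal) and desflurane (vertical) for the 8024 genes whose mean TPM reached 2 (grey, 14 lie outside the axes), with 7 of the 9 genes in red and the line of equal change dotted. *Irgm*, *Irf1* and *Igtp* lie at the lower left, *Gbp5* and *Gbp2* lie left of the main cloud near 0 on the desflurane axis, and *Stat2* and *Irf8* lie in the upper right part of the cloud.

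A shared change, common to the agents, was fitted with limma over all 8024 genes whose mean TPM reached 2, which takes the agents as repeats of each other (1 residual degree of freedom, adjusted p below 0.05). The test compares 2 libraries with 2 and covers anesthesia and time of day together. It found 3 of the 7 genes lower and 0 higher, where 3.94% of all genes were lower and 4.69% higher. *Irf1* fell by 2.15 on the log2 scale (SE 0.21, limma adjusted p = 3.33e-05), *Igtp* fell by 2.12 (SE 0.21, limma adjusted p = 3.28e-05) and *Irgm* fell by 1.99 (SE 0.22, limma adjusted p = 9.06e-05). The estimate was -0.67 (SE 0.28) for *Gbp5* and -0.61 (SE 0.24) for *Gbp2*, with limma adjusted p of 0.205 and 0.173. It was 0.46 (SE 0.16) for *Stat2* and 0.22 (SE 0.22) for *Irf8*, with limma adjusted p of 0.123 and 0.669. Without the filter on low values, limma called 0 of 16999 genes (1709 had an unadjusted p below 0.05), and the adjusted p of *Irf1*, *Irgm* and *Igtp* lay between 0.427 and 0.472 there.

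The genes most like *Irf1* in their course over the 4 libraries were found by the Euclidean distance between centred log2(TPM + 1) profiles, among 8023 genes. *Igtp* was number 3 (distance 0.40) and *Irgm* number 5 (0.45). *Gbp5* and *Gbp2* were numbers 535 and 586, and *Irf8* and *Stat2* were numbers 6236 and 7237. The 5 nearest genes outside the group were *Tsc22d1*, a leucine zipper protein (distance 0.20), *S1pr1*, a receptor for sphingosine 1-phosphate (0.26), *Tubb2b*, a beta tubulin (0.43), *Gpam*, an acyltransferase of triglyceride synthesis (0.48), and *Ptk6*, a tyrosine kinase (0.49). With 4 libraries this likeness is a description only.

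The upstream pathway was read from 13 genes for interferon-gamma, its receptor, kinases, a transcription factor and inhibitors. The cytokine gene *Ifng* itself was listed at 0 in all 4 libraries. The receptor gene *Ifngr1* had a TPM of 10.9, 17.5, 12.1 and 19.6, higher in both anesthetized rats by 1.6-fold with either agent and not called, whereas *Ifngr2* had 5.67, 3.97, 6.32 and 5.11. *Jak1* varied little, between 53.4 and 57.9, and *Jak2* lay between 7.15 and 9.87. *Stat3*, which mainly serves interleukin-6, had 17.7, 21.4, 21.6 and 29.2.

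The inhibitors on the list had mixed directions. *Socs3*, a relative of *Socs1*, had a TPM of 5.02, 6.37, 5.32 and 9.99, and *Cish* had 0.99, 0.69, 2.29 and 0.52, which made it the 1 gene of these called lower with desflurane (4.38-fold). *Cish* passed the minimum through the desflurane control alone, which was itself 2.31-fold above the sevoflurane control. *Pias1*, which restrains transcription factors on DNA, had 3.91, 3.64, 5.87 and 3.51. Among the tyrosine phosphatases *Ptpn1* had 4.23, 6.83, 5.61 and 9.32, higher at 6 h in either pair and not called. *Ptpn2* lay between 9.22 and 11.4 and *Ptpn6* between 9.30 and 12.3. *Ptpn11* had 12.1, 14.5, 16.0 and 12.5. Of the genes reported here, 0 of 11 above the minimum were called in either direction with sevoflurane (3.71% lower and 5.04% higher over all genes). With desflurane 1 of 12 was called lower and 0 higher (5.55% and 4.10% over all genes). These counts lie near the shares of all genes and do not show that the pathway stayed level. The median log2 change was 0.24 with sevoflurane and -0.12 with desflurane, and counts and medians leave out any list gene that is not reported.

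The neighbouring lists were small. Of the interleukin-12 and interleukin-18 axis, which drives interferon-gamma production, only *Il18* exceeded the minimum (TPM 6.73, 5.16, 7.65 and 4.56), and it was not called. Of 4 type I interferon signalling genes tested 0 were called with either agent. Over all genes 3.71% were called lower and 5.04% higher with sevoflurane, and 5.55% and 4.10% with desflurane. With so few genes, 0 calls lies near these shares and does not show that the pathway stayed level. Changes were negative for 2 of the 4 with sevoflurane (median log2 change -0.19) and for 3 with desflurane (median -0.51). *Ifnb1* and *Ifna1* were listed at 0 throughout. Of the other interferon regulatory factors reported here, 0 of 4 above the minimum were called with either agent, again near the shares of all genes. Their median log2 change was 0.21 with sevoflurane (2 of 4 negative) and -0.36 with desflurane (3 of 4 negative).

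The other interferon-inducible GTPases with a call were lower, like *Irgm* and *Igtp*. Of 12 listed, 4 had a row in the tables and 3 exceeded the minimum. *Ifi47*, an immunity-related GTPase on the same stretch of chromosome 10 as *Irgm* (34277993 to 34285623), had a TPM of 7.15, 2.60, 7.64 and 2.41 and was called with both agents (2.75-fold and 3.17-fold lower), as *Irgm* was. The dynamin-like antiviral GTPases *Mx1* (7.51, 2.49, 5.80 and 3.66) and *Mx2* (31.1, 9.43, 23.2 and 12.1) were called with sevoflurane only, by 3.01-fold and 3.30-fold, with ratios of 1.58 and 1.92 for desflurane. The median log2 change of the 3 was -1.28 with sevoflurane and -0.89 with desflurane. All 3 were lower in the common change, with limma adjusted p of 0.00413 for *Ifi47*, 0.0442 for *Mx1* and 0.00218 for *Mx2*.

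Targets of interferon-gamma outside the GTPases came next. Of 33 listed, 30 had a row and 25 exceeded the minimum. With sevoflurane 4 were called lower and 0 higher (3.71% and 5.04% of all genes), 24 of the 25 changes were negative, and the median was -0.39. With desflurane 3 were called lower and 0 higher (5.55% and 4.10% of all genes), 16 were negative and 9 positive, and the median was -0.08. The 4 called with sevoflurane were *Psmb9*, an immunoproteasome subunit (78.8, 28.1, 58.9 and 37.6), *Tap1*, a subunit of the peptide transporter for class I antigen presentation (25.3, 12.4, 29.5 and 16.1), *Ubd*, a ubiquitin-like modifier (94.1, 44.7, 82.2 and 59.5), and *Casp1*, the inflammasome protease (9.58, 3.10, 5.81 and 5.46). The 3 called with desflurane were the chemokine *Cxcl11* (8.19, 7.08, 13.2 and 4.50) and the ADP-ribosyltransferase family genes *Parp9* (34.4, 17.6, 32.7 and 15.3) and *Parp14* (35.0, 26.6, 38.8 and 14.1), the gene outside the group whose promoter shares the spacing of motifs in *Irgm* and *Igtp* and which had a row in the tables. In the common change 6 of the 25 were lower and 0 higher, where 3.94% and 4.69% of all genes were (*Psmb8*, *Psmb9*, *Tap1*, *Ubd*, *Parp9* and *Parp14*), with limma adjusted p between 0.00275 and 0.0271.

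The class II antigen presentation genes on that list went opposite ways with the agents. All 7 had a negative log2 change with sevoflurane (-0.46 to -0.07) and a positive one with desflurane (0.47 to 0.88), none of them past the ratio, and the difference between the agents was not tested. For *Cd74*, the invariant chain, the TPM was 139, 108, 126 and 178. The summed TPM of 12 macrophage markers ran the same way at 727, 597, 668 and 764, with 11 of 12 changes negative for sevoflurane and 11 of 12 positive for desflurane and 0 called. The part of the macrophages in the class II values was not tested.

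**Figure D4:**
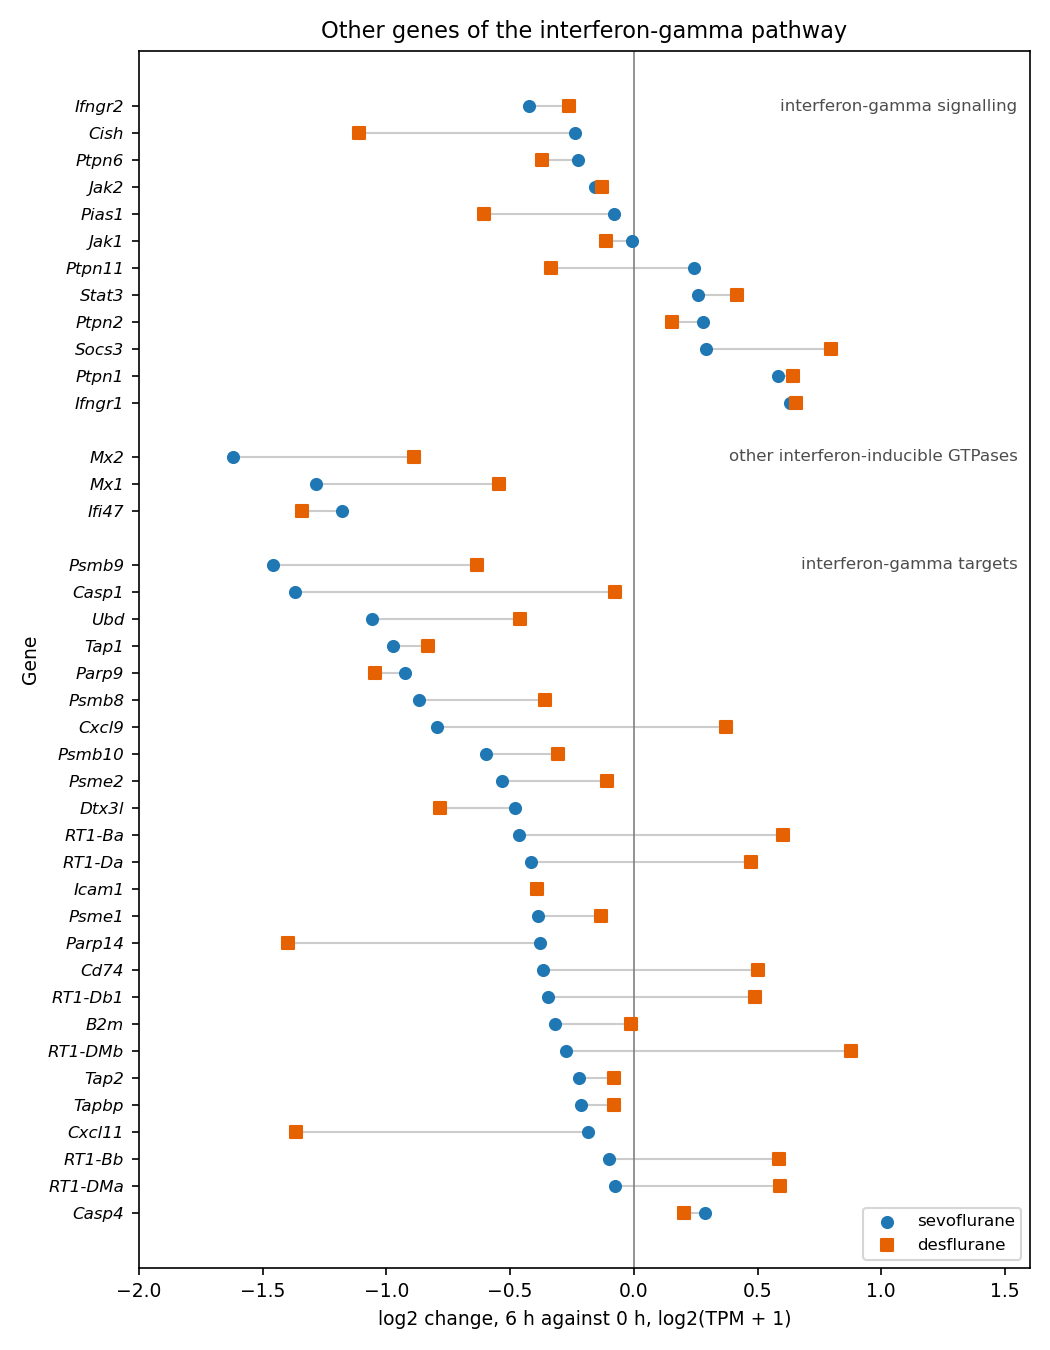
Log2 change from 0 h to 6 h on log2(TPM + 1) with sevoflurane (circles) and desflurane (squares) for the genes of 3 pathway lists above the TPM minimum, ordered within a list by the sevoflurane value. The other GTPases, *Psmb9*, *Ubd* and *Tap1* lie left of 0 with both agents, and the class II genes, named RT1 or *Cd74*, lie on opposite sides of 0.

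Cell types were read from marker lists beside these values. In a bulk sample fewer cells of a type and less RNA per cell cannot be told apart. The summed TPM of 17 natural killer and T cell markers was 27.5 and 22.9 at 0 h and 16.9 and 18.8 at 6 h. *Cd4* (7.35, 7.39, 5.71 and 7.99) had the largest value of the list in each library. It was not lower at 6 h with either agent, so the sum hides part of the fall in the summed TPM of the other markers. The T cell genes *Cd3d*, *Cd3e* and *Cd3g* had no value above 0.81, and which cells the *Cd4* signal comes from was not tested. Over the whole list the markers had mixed directions, with 11 of 17 lower and 5 higher at 6 h of sevoflurane, and 8 lower and 8 higher at 6 h of desflurane. *Klrk1* (3.81, 1.28, 3.34 and 0.91) and *Xcl1* (2.78, 0.68, 3.48 and 0.34) were lower at 6 h with both agents, while *Gzmm* (1.0, 1.18, 0.44 and 1.69) and *Ncr1* (0, 0.41, 0.22 and 1.03) were higher. Most markers lay near or under the minimum, which the called ones passed through control libraries alone, so no count of calls is given. *Nkg7* and *Prf1* already differed between the controls, by 3.04-fold and 2.27-fold. *Klrb1* was at 0 in all libraries. These cells make interferon-gamma, and their part in the lower levels of *Irf1* and the GTPases was not tested. The macrophage sum, given above, was lower at 6 h with sevoflurane (727 at 0 h and 597 at 6 h) and higher with desflurane (668 and 764). The part of macrophages in the lower levels of *Irf1*, *Irgm* and *Igtp* was not tested. Endothelial markers summed to between 56.8 and 67.1 over the 4 libraries and hepatocyte markers to between 94989 and 106578, with 0 past the ratio in either list. In the common change *Cps1* and *Apoa1* of the 9 hepatocyte markers were higher (limma adjusted p = 0.00528 and 0.0145). B cell markers summed to at most 1.8 and neutrophil markers to at most 4.16, with *Mpo* and *Elane* at 0.

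Markers of red blood cells, clock genes and glucocorticoid-induced genes moved with the 6 h against 0 h comparison as well. Red blood cell markers summed to 632 and 991 at 0 h and 1671 and 1864 at 6 h. The span of *Hba-a2* covers that of *Hba1*, and their values were nearly equal (158 and 160 in the sevoflurane control). The sum may therefore count some reads more than once. The 13 clock genes in the tables summed to 66.4 and 69.2 at 0 h and 194.8 and 157 at 6 h, a sum carried by genes such as *Dbp* (0.40, 87.9, 1.92 and 44.8). Of 12 tested with sevoflurane 8 were called higher and 3 lower. With desflurane 7 of 12 were called higher and 1 lower, and *Arntl* (22.6, 0.43, 17.6 and 2.14) was lower with both. The 10 glucocorticoid-induced genes summed to 749 and 1162 at 0 h and 2219 and 2687 at 6 h. Most of that sum came from *Pck1* (527, 1497, 942 and 1762) and *Tat* (123, 529, 119 and 623). Calls for a higher level numbered 8 of 10 for sevoflurane and 7 of 10 for desflurane. The 1 call for a lower level was *Sgk1* at 6 h of sevoflurane (32.7, 8.59, 21.6 and 26.7). *Dusp1* was not called for sevoflurane, and *Tsc22d3*, *Sgk1* and *Pck1* were not called for desflurane. The part of blood content, hour of the day or glucocorticoid in the lower levels of *Irf1*, *Irgm* and *Igtp* was not tested.

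The loci assembled from the reads gave a second reading of the same libraries. Over *Irf1* the assembled TPM was 20.2, 4.24, 26.0 and 4.44, over *Irgm* it was 17.9, 3.07, 17.1 and 4.39, and over *Igtp* it was 59.2, 18, 64.6 and 9.65. These are close to the values of the named rows, apart from *Igtp* with desflurane. For *Gbp5* the sevoflurane 6 h library had 3 short loci in place of 1, with a summed TPM of 4.03 and a mean of 1.41 weighted by span, against 4.63 in the sevoflurane control. On the sum the log2 change of *Gbp5* with sevoflurane was -0.16 in place of -1.20 and the call was lost, and on the weighted mean it was -1.22. Over *Gbp4* the loci were likewise broken up. Their summed TPM was 3.57, 3.73, 3.17 and 4.34, not lowest at sevoflurane 6 h, and the weighted mean was 1.74, 0.95, 1.61 and 1.41. The log2 change of *Gbp4* with sevoflurane was 0.05 on the sum and -0.50 on the weighted mean, in place of -0.51.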

How the data were processed

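Stranded libraries of total RNA from 4 rat livers were analysed, 1 per group, and groups were taken from the sample titles. Per the labels, the submitters' processing notes name HISAT2, SAMtools and StringTie and the build rn6, without versions. Each library came as a StringTie abundance table, in which the authors give TPM, FPKM and coverage for named genes and for assembled loci. The deposited TPM values of named genes come on top of assembled loci that already sum to a whole TPM scale, so the column was handled as a score. The deposited FPKM served only to derive aligned bases from coverage, the mean depth signal that the authors give per base.

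Rows of a symbol were summed, after removal of rows with a span up to 200 bp. Without read counts no counting interval can be given, and low values are least precise in the shallow sevoflurane control. Changes were computed with Python 3.11.15 (pandas 2.3.3) on log2(TPM + 1). The common change was fitted with limma 3.58.1 in R 4.3.3 (eBayes with trend, agent as a block, two-sided, Benjamini-Hochberg over 8024 genes). The rule of size and this fit were tested on simulated data, and the other steps were not. Values of genes that share reads with near relatives are uncertain. Assembled loci were matched between libraries when they overlapped by 50%.

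The members, lists, rules and alternatives were chosen with earlier results of these data known. The text names the members, the signalling list above the minimum, called genes of the other lists and the 5 genes nearest to *Irf1*. *Cd74*, *Apof*, *Ifnb1*, *Ifna1*, *Ifng*, *Il18*, *Psmb8*, the marker genes named, the unnamed loci, the promoter genes and the genes whose direction differed between the agents were named after their values were seen. Some genes of the lists are not reported here. Planned protein features were not run, and the repeat of the experiment was not analysed here.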

Additional observations from a re-analysis of the deposited data

Results flagged for a closer look

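Among 55 genes of the group and its pathway lists that exceeded the minimum with both agents, 11 had log2 changes of opposite sign with sevoflurane and desflurane, and none of them was 1 of the 9 genes. The difference is given as the desflurane change minus the sevoflurane change on log2(TPM + 1). Each rests on 1 library per group and was not tested. Class II antigen presentation genes made up 7 of the 11, all higher with desflurane. The difference was 0.87 for *Cd74*, 0.89 for *RT1-Da*, 0.83 for *RT1-Db1*, 1.07 for *RT1-Ba*, 0.69 for *RT1-Bb*, 0.67 for *RT1-DMa* and 1.15 for *RT1-DMb*. For the chemokine gene *Cxcl9* it was 1.17. The signs were the other way round for *Ptpn11* (-0.58), *Tyk2* (-0.74) and *Irf3* (-0.82). Differences between the controls enter these values. On the same scale the desflurane control minus the sevoflurane control was 0.38 for *Ptpn11*, 0.39 for *Tyk2* and 0.46 for *Irf3*. It was -0.81 for *Cxcl9*, where the anesthetized rats differed by 0.36. For the class II genes it lay between -0.51 and 0.25. None of these 11 genes met the ratio with either agent.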

How the results depend on the processing

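The count of members called lower stayed at 3 with desflurane under 9 alternatives (other ratios and minimums, scaling by the median of ratios, the control of the other agent, the longest row, and summed or span-weighted assembled loci, the last added after seeing the data). With sevoflurane it was 4 or 5 under the same ones, and *Gbp5* was the call lost with summed loci. Scaling took the median change of all genes with desflurane from -0.10 to -0.0027 and altered no count of members. The median of the 7 genes above the minimum moved from -1.20 to -1.63 with sevoflurane at a pseudocount of 0.1. With desflurane it moved from -0.16 to -0.44 against the other control and to -0.95 with either reading of the assembled loci, which leaves out *Stat2*. Called targets with sevoflurane numbered 8 at a ratio of 1.5, 1 at a ratio of 3 and 2 against the other control, in place of 4. With desflurane they numbered 6, 0 and, at a minimum of 1, 5, in place of 3. Other GTPases called with desflurane went from 1 to 3 at a ratio of 1.5 and against the other control. Signalling genes called with sevoflurane went from 0 to 1 against the other control. With desflurane they went from 1 to 2 at a ratio of 1.5, and to 0 at a minimum of 5 and against the other control. The cause of these shifts was not tested. The common change kept 3 members lower in 8 of 9 other limma fits, with 1 library left out or not, and 0 in the fit without a filter on low values. Over the 8, limma adjusted p lay between 8.5e-06 and 0.00769 for *Irf1*, 7.45e-06 and 0.013 for *Igtp* and 3.03e-05 and 0.0165 for *Irgm*. Fits without 1 library assume that a lone library varies like the others. The labels give no replicate numbers, and the only pairing is by agent, which the common change uses. Low depth limits *Gbp4* and *Socs1*.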
